A study of Mus musculus with 9 samples.

Results

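mmu_circ_0015494 and mmu_circ_0015495 are 2 circular RNAs (circRNAs) measured in mouse liver, picked by probe name (mmu_circ_0015494_CBT1 and mmu_circ_0015495_CBT1) from the 30534 circRNAs that have a probe on the array. They were picked with earlier results of these data known, because their signal was among the brightest on the array and was lower in the fat-fed groups than on chow. Their levels and their differences from the chow group are therefore given as a description, with no test. Beside them stand their partner probes, whose names carry the ending _neg, and, as context chosen by number alone, every array probe numbered from mmu_circ_0015485 to mmu_circ_0015505. Of those 21 numbers, 15 have a circRNA probe on the array, each with its own partner, so that the pair has 13 numbered neighbours.

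A circRNA is made when the splicing machinery joins the end of an exon back to the start of the same exon or of an upstream one, which closes the transcript into a loop. The loop has no free end, so it withstands RNase R, an enzyme that digests linear RNA from its 3′ end, and it often outlives the linear messenger RNA of the same gene. Several circles can arise from 1 gene through different back-splice junctions. The sources used here name the pair by catalogue number only. Host gene, genome position and probe sequence were not analysed here, and neither was what the _neg probes bind.

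The study set metformin, a glucose-lowering drug, against a fatty diet in male C57BL/6J mice that entered at 3 weeks of age, stayed on their diet for 17 weeks and gave their livers at 20 weeks. The control group ate chow, and no gavage is listed for it. The high fat diet group ate a feed with 45% of its energy as fat and had saline by gavage over the last 5 weeks, and the metformin group ate the same feed and had 3 mg/kg/day of metformin by gavage over those 5 weeks. Diet and gavage cannot be told apart in a difference from control. Each group has 3 arrays, and each array is a pool of liver from 4 mice, so the spread between arrays is that between pools. RNA from 15 mg of liver was used, of which 5 µg was digested with RNase R for 30 minutes before labelling with 1 dye, Cy3. In whole liver, fewer cells of a type and less of a circle per cell cannot be told apart, and cell type markers were not analysed here.

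Between 69.5% and 84.3% of probes were well above background on an array, lowest on high fat diet replicate 2 and on replicate 3 of metformin, and the intensity at the 75th percentile lay between 722.8 and 1053. All 3 control arrays and high fat diet replicate 1 sat in column 1 of slide 1, the other high fat diet arrays and metformin replicates 1 and 2 in column 2, and metformin replicate 3 on slide 2. These positions come from the array barcode. The number that follows the slide's is called the column here, a name given for this report. The 4 control spots for the linear messenger RNAs of mouse Gapdh and Pgk1 gave mean levels, in the order control, high fat diet and metformin, of 5.78, 5.67 and 5.78 for GAPDH_5 and of 3.39, 3.23 and 3.18 for GAPDH_3. The PGK1_3 spot averaged 2.87, 2.79 and 2.97 and the PGK1_5 spot 1.14, 1.07 and 1.21 (SDs of 0.0529 to 0.346 over the 4 spots, n = 3 arrays each). The part of these measures in the pair's values was not tested. Levels here are log2 of the spot's processed intensity minus log2 of the array's 75th percentile, so that a level of 8 is a signal 8 doublings above that percentile.

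Both circles were at their brightest on chow. mmu_circ_0015494 stood at levels of 8.73, 8.74 and 8.69 on the 3 control arrays, at 7.36, 7.92 and 7.94 on the high fat diet arrays and at 7.31, 7.41 and 7.77 on the metformin arrays. mmu_circ_0015495 stood at 8.80, 8.80 and 8.91 on the control arrays, at 7.76, 8.003 and 8.38 on the high fat diet arrays and at 7.29, 7.60 and 8.11 on the metformin arrays. For both circles every fat-fed array lay below every control array, while the high fat diet and metformin arrays overlapped. The control arrays were also the tightest, with SDs of 0.0256 for mmu_circ_0015494 and 0.0663 for mmu_circ_0015495, against 0.327 and 0.311 in high fat diet and 0.240 and 0.413 in metformin (n = 3 each).

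**Figure D1:**
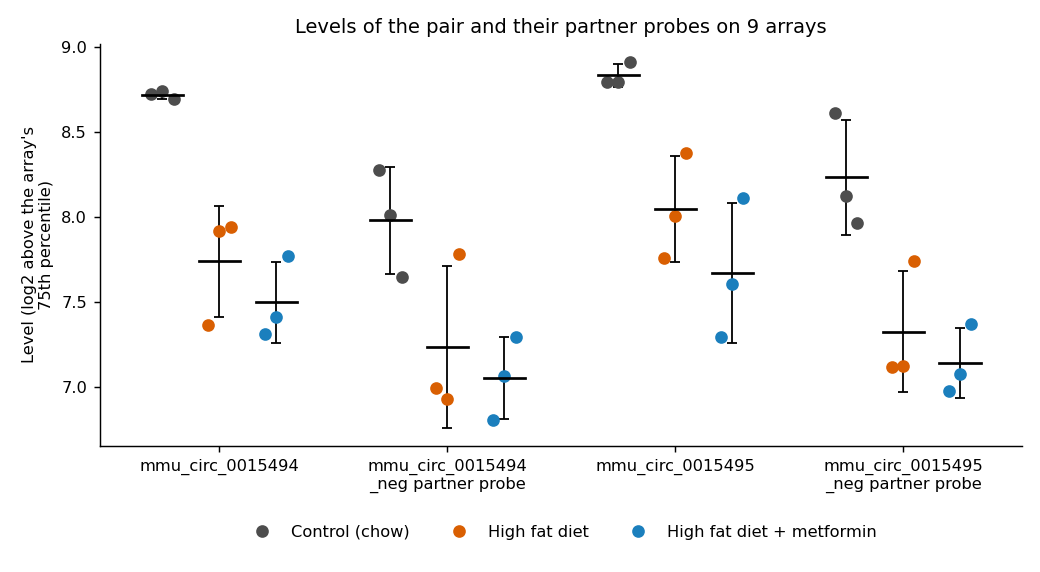
Level of mmu_circ_0015494, mmu_circ_0015495 and their _neg partner probes on each of the 9 arrays, in log2 units above the array's 75th percentile, by group; points are arrays and bars the group mean ± SD (n = 3). The control arrays of both circles sit above all 6 fat-fed arrays, and the control points of the circRNA probes lie closer together than those of the partners.

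The same order showed in the scanner's median intensities before any scaling. For mmu_circ_0015494 these were 361017, 325083 and 307208 on the control arrays, 132147, 265212 and 221412 in high fat diet and 116450, 135750 and 170227 in metformin. For mmu_circ_0015495 they were 423518, 354454 and 359129 in control, 177448, 291897 and 334126 in high fat diet and 123073, 164469 and 210498 in metformin. The 423518 of mmu_circ_0015495 on control replicate 1 was the highest intensity of any spot on the 9 arrays. No spot on any array was saturated, and none of the pair's spots or their partners' carried an outlier mark, so the pair was measured within the scanner's range throughout.

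Ordered by level among the circRNA probes of each array, mmu_circ_0015495 ranked 1 on all 3 control arrays and mmu_circ_0015494 ranked 2, 2 and 3. By median intensity, mmu_circ_0014067 was the brightest on control replicate 2, at 370381 against 354454 for mmu_circ_0015495. On the high fat diet arrays mmu_circ_0015495 ranked 17, 7 and 5 and mmu_circ_0015494 ranked 27, 9 and 11. On the metformin arrays the ranks were 21, 16 and 13 for mmu_circ_0015495 and 20, 20 and 21 for mmu_circ_0015494. By the mean over all 9 arrays, mmu_circ_0015495 ranked 7, between mmu_circ_0008792 at 6 and mmu_circ_0000794 at 8, and mmu_circ_0014873 and mmu_circ_0005713 (4 and 5) stood above them. mmu_circ_0015494 ranked 11, between mmu_circ_0005714 at 10 and mmu_circ_0006409 at 12. A probe's brightness also depends on how well it binds its target, so these ranks order probe signals and not the amounts of the circles.

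Against control, mmu_circ_0015494 was lower by a log2 difference of -0.98 ± 0.179 (SE) in high fat diet, a signal 49.3% lower, and mmu_circ_0015495 by -0.79 ± 0.210, a signal 42.1% lower. In metformin the difference from control was -1.22 ± 0.179 for mmu_circ_0015494 (57.2% lower) and -1.17 ± 0.210 for mmu_circ_0015495 (55.5% lower). These comparisons share the control arrays. All 3 high fat diet arrays lay below all 3 control arrays for 9% of the 24862 circRNAs with a value on every array of both groups. For the 3 metformin arrays that share was 6.88% of 24707, and for all 6 fat-fed arrays together it was 2.52% of 24546. The pair met all 3 conditions, and since it was picked for being lower than control, nothing is read from that. Over all circRNAs tested, 62.0% were lower in high fat diet than in control, with a median difference of -0.056.

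Array position was not balanced over the groups. Within column 1, which held the 3 control arrays and a single high fat diet array, the high fat diet minus control difference was -1.36 for mmu_circ_0015494 and -1.07 for mmu_circ_0015495. With the column as a covariate it was -1.03 and -0.71, and the metformin minus control difference was -1.28 and -1.09. That covariate held the column number and not the slide, so metformin replicate 3, in column 1 of slide 2, was counted with column 1 of slide 1. No control array sat in column 2 or on slide 2, so no within-column value for metformin against control can be had.

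Metformin set against the high fat diet group is the comparison whose difference does not use the control levels, and here the pair was tested. Its SEs, intervals and p-values do use the control arrays, through the spread that all groups share in the fit. The control arrays were the tightest for both circles, which pulls that shared spread down. The fat-fed arrays were also part of the pick of the pair, so the test is not free of that pick. mmu_circ_0015494 differed by -0.24 ± 0.179 (95% interval -0.63 to 0.15, adjusted p = 0.969, limma with Benjamini-Hochberg adjustment over 25828 circRNAs). mmu_circ_0015495 differed by -0.38 ± 0.210 (-0.84 to 0.08, adjusted p = 0.969, limma). Neither difference passed the threshold of 0.05, the arrays of the groups overlapped for both, and the intervals hold 0 as well as a drop of more than 0.6. No circRNA passed in this comparison (0%), and 1007 had an unadjusted p under 0.05 (3.9%). Within column 2, with 2 arrays of each group, the differences were -0.57 and -0.74 (adjusted p = 0.791 for both, limma). The pair's gap between the fat-fed groups was thus wider when high fat diet replicate 1 and metformin replicate 3 were left out.

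The partner probes of the pair were bright too, and their means were lower in both fat-fed groups. The partner of mmu_circ_0015494 stood at 8.28, 8.01 and 7.65 in control, 6.99, 6.93 and 7.78 in high fat diet and 6.80, 7.06 and 7.29 in metformin. The partner of mmu_circ_0015495 stood at 8.61, 8.12 and 7.96 in control, 7.11, 7.12 and 7.74 in high fat diet and 6.98, 7.07 and 7.37 in metformin. High fat diet replicate 3 was the array on which both partners came closest to control, and there the partner of mmu_circ_0015494 exceeded the lowest control array. The control SDs were 0.316 and 0.340, wider than those of the circRNA probes themselves. All 6 fat-fed arrays lay below control for the partner of mmu_circ_0015495, as for 2.34% of all partner probes, and not for the partner of mmu_circ_0015494. In high fat diet alone the same held (8.86% of partner probes), while the 3 metformin arrays lay below control for both partners (5.77%).

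Tested over all partner probes, neither partner passed the threshold in any comparison. In high fat diet minus control the partner of mmu_circ_0015494 differed by -0.75 ± 0.243 (adjusted p = 0.561) and that of mmu_circ_0015495 by -0.91 ± 0.219 (adjusted p = 0.359, limma). In metformin minus control they differed by -0.93 ± 0.243 (adjusted p = 0.566) and -1.09 ± 0.219 (adjusted p = 0.563, limma). Between metformin and high fat diet both differed by -0.18 (adjusted p = 0.947 and 0.946, limma). No partner probe on the array passed in any of the 3 comparisons (0%), while 1559 (7.09%), 1005 (4.56%) and 1359 (6.18%) had an unadjusted p under 0.05 in high fat diet minus control, metformin minus high fat diet and metformin minus control.

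Set against its own partner on the same array, each circle was brighter on all 9 arrays. The probe minus partner difference of mmu_circ_0015494 was 0.74 ± 0.298 in control, 0.51 ± 0.431 in high fat diet and 0.45 ± 0.0823 in metformin (SD, n = 3). That of mmu_circ_0015495 was 0.60 ± 0.389, 0.72 ± 0.138 and 0.53 ± 0.211. Between groups it moved little beside its spread. For mmu_circ_0015494 it differed from control by -0.24 ± 0.228 in high fat diet and -0.30 ± 0.228 in metformin (SE), and for mmu_circ_0015495 by 0.12 ± 0.203 and -0.07 ± 0.203. With the partner subtracted, the 4 differences from control thus lay between -0.30 and 0.12, against -1.22 to -0.79 for the probes' own signal.

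The numbered neighbours ranged widely in signal. mmu_circ_0015496, mmu_circ_0015497, mmu_circ_0015498, mmu_circ_0015502 and mmu_circ_0015503 had a mean level over 6, a boundary chosen after the values were seen, and were well above background on all 9 arrays. With the pair they make a set of 7 bright probes. Of the other 8 neighbours, mmu_circ_0015486 and mmu_circ_0015489 were not well above background on any array and were not tested, and 6 were tested at lower levels, from group means near -2.68 for mmu_circ_0015493 to 3.45 for mmu_circ_0015488. In all, 11 of the 13 neighbours were tested.

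**Figure D2:**
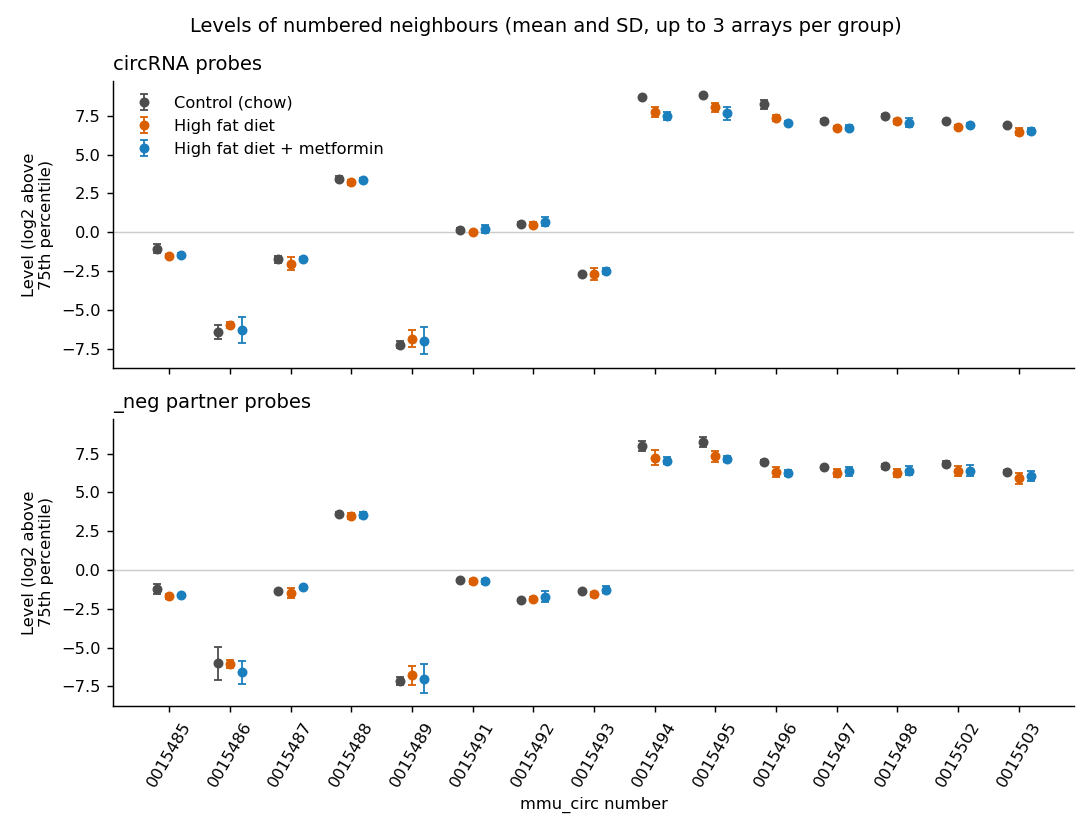
Level of each probe numbered mmu_circ_0015485 to mmu_circ_0015503 by group, in log2 units above the array's 75th percentile. The upper panel holds the circRNA probes and the lower panel their _neg partners. Points are group means and bars the SD (up to 3 arrays per group). The 7 circRNA probes of the bright set stand above a level of 6. Within it the gap between the control mean and the fat-fed means is widest for mmu_circ_0015494, mmu_circ_0015495 and mmu_circ_0015496.

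mmu_circ_0015496, the next number after the pair, had the lowest differences from control of the tested neighbours. Its levels were 8.59, 8.12 and 7.98 in control, 7.38, 7.17 and 7.53 in high fat diet and 6.95, 7.05 and 7.19 in metformin. Every fat-fed array lay below every control array, and high fat diet and metformin overlapped only at their edges. It differed from control by -0.87 ± 0.173 in high fat diet (adjusted p = 0.244) and by -1.17 ± 0.173 in metformin (adjusted p = 0.290, limma). Under 3 of the 22 other ways of processing the metformin difference passed. It was -1.10 with adjusted p = 0.0278 after normexp background correction and -0.87 with adjusted p = 0.0377 after normexp and quantile normalisation (limma). With a trend and robust spread it was -1.17 with adjusted p = 0.00876 (limma). Over the 22 the adjusted p reached 0.815 (limma), and the high fat diet difference of mmu_circ_0015496 passed in 0 of them. Against its own partner the metformin minus control difference was -0.44 ± 0.166 (adjusted p = 0.809, limma).

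The other bright neighbours were lower than control by less. mmu_circ_0015497 stood at 7.28, 7.10 and 7.16 in control, 6.55, 6.77 and 6.79 in high fat diet and 6.66, 6.61 and 6.95 in metformin. mmu_circ_0015503 stood at 6.99, 6.88 and 6.78 in control, 6.33, 6.38 and 6.76 in high fat diet and 6.38, 6.45 and 6.76 in metformin. In both, the highest fat-fed array came close to the lowest control array without reaching it. mmu_circ_0015498 stood at 7.62, 7.52 and 7.41 in control, 7.02 and 7.26 in high fat diet and 6.94, 6.85 and 7.37 in metformin. mmu_circ_0015502 stood at 7.22, 7.21 and 7.15 in control, 6.68 and 6.85 in high fat diet and 6.75, 6.89 and 7.001 in metformin. For these last 2 the spot on high fat diet replicate 1 carried an outlier mark and was left out, so their high fat diet values rest on 2 arrays.

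In high fat diet minus control these 4 differed by -0.47 ± 0.142 for mmu_circ_0015497 (adjusted p = 0.485), -0.38 ± 0.185 for mmu_circ_0015498 (0.721), -0.43 ± 0.148 for mmu_circ_0015502 (0.561) and -0.40 ± 0.159 for mmu_circ_0015503 (0.635, limma). In metformin minus control they differed by -0.44, -0.46, -0.31 and -0.35, with adjusted p = 0.862, 0.919, 0.927 and 0.972 in the same order (limma). No neighbour passed the threshold in either comparison, and neither did any other circRNA (0% of 25777 and of 25763). At an unadjusted p under 0.05 stood 1868 circRNAs in high fat diet minus control (7.25%) and 1307 in metformin minus control (5.07%), among them 5 and 6 of the 11 tested neighbours. Of the 11 tested neighbours, 5 lay below control without overlap on all their fat-fed arrays, and these were the 5 bright ones. The share was 2.52% over all circRNAs with a value on all 9 arrays, whereas mmu_circ_0015498 and mmu_circ_0015502 had values on 8. The bright set was bounded after the values were seen, so nothing is read from its count.

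Among the 6 tested neighbours outside the bright set, 1 lay below control without overlap in high fat diet, as did 9% of all circRNAs compared alike. This was mmu_circ_0015485, lower by -0.47 ± 0.162 in high fat diet (adjusted p = 0.558) and by -0.43 in metformin (adjusted p = 0.919, limma). Its metformin arrays overlapped control. The other 5 that were tested overlapped control in both comparisons. All 11 tested neighbours had a lower mean in high fat diet than in control, with a median difference of -0.38, against 62.0% of all circRNAs and a median of -0.056. In metformin 7 of the 11 were lower, and over all circRNAs 56.7% were. Between metformin and high fat diet 2 of the 5 bright neighbours were lower, with a median of 0.04.

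**Figure D3:**
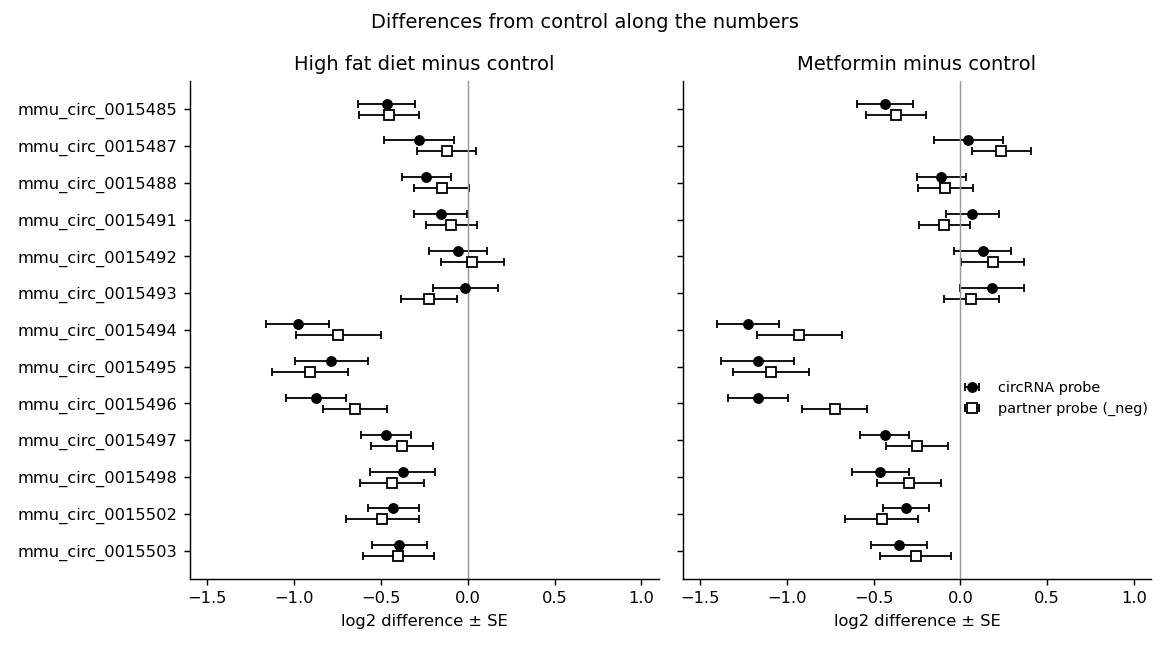
Difference from control (log2 ± SE from the fit) of the pair and the 11 tested neighbours, with filled circles for circRNA probes and open squares for their _neg partners. Among the circRNA probes, those furthest below 0 in both comparisons are mmu_circ_0015494, mmu_circ_0015495 and mmu_circ_0015496, and the partners of all 3 also lie below 0. In high fat diet the partner of mmu_circ_0015495 is at -0.91, further below 0 than its circRNA probe at -0.79. In metformin the partner of mmu_circ_0015496 is at -0.73 and its circRNA probe at -1.17.

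Most of the brightest probes had a lower mean away from chow. Of the 50 brightest circRNAs by mean level, 44 were lower in high fat diet than in control with a median difference of -0.23, and of the 43 among them outside the bright set, 37 were lower with a median of -0.21. In metformin 40 of the 50 were lower, with a median of -0.15, and 33 of the 43, with a median of -0.12. Ordered from the lowest difference among those 50, mmu_circ_0015494 came at 1, mmu_circ_0015496 at 3 and mmu_circ_0015495 at 5 in high fat diet. In metformin mmu_circ_0015494 came at 1, mmu_circ_0015496 at 2 and mmu_circ_0015495 at 3. The other bright neighbours came between 10 and 15 in the 2 orders. The part of brightness in the pair's values was not tested.

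**Figure D4:**
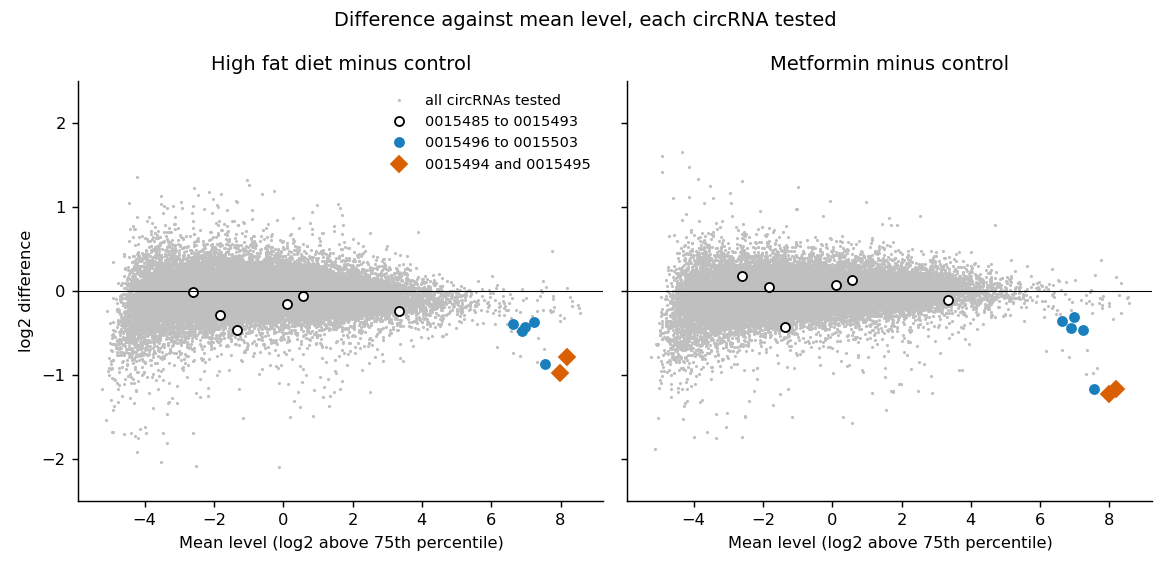
Difference from control (log2) of every tested circRNA against its mean level over the 9 arrays (log2 above the 75th percentile), with the pair and the bright neighbours marked. The pair lies at the bright end and below 0 in both comparisons, and most of the 50 brightest circRNAs also lie below 0.

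Across the 9 arrays the pair varied together, with Pearson's r = 0.961, and r = 0.847 for deviations from the group means. With the 6 other probes of the bright set, r lay between 0.822 and 0.961 for mmu_circ_0015494 and between 0.805 and 0.961 for mmu_circ_0015495, over 8 arrays for mmu_circ_0015498 and mmu_circ_0015502 and 9 for the rest. For deviations from the group means these ranges were 0.184 to 0.852 and 0.324 to 0.861, and both lowest values were with mmu_circ_0015496. With the 6 tested neighbours outside the bright set, r lay between -0.20 and 0.76 and between -0.15 and 0.63. All these values come from the same 9 arrays and share each array's scaling and the difference between groups, so they describe the profiles and carry no p.

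Outside the numbered neighbours, 21623 circRNAs well above background on all 9 arrays were compared with each circle by r over the 9 arrays. The 5 most alike to mmu_circ_0015494 were mmu_circ_0008210 (r = 0.928), mmu_circ_0005866 (0.921), mmu_circ_0010285 (0.916), the circle named by chromosome 15 from 21288478 to 21288772 in the array's mm9 names (0.914) and Fan_16_148_1231 (0.914). The 5 most alike to mmu_circ_0015495 were mmu_circ_0010441 (0.970), mmu_circ_0015506 (0.918), mmu_circ_0010285 (0.914), mmu_circ_0016041 (0.913) and the same chromosome 15 circle. mmu_circ_0015506 lies just outside the numbered range, and its mean levels were 7.78 in control, 7.22 in high fat diet and 7.07 in metformin. mmu_circ_0010285, alike to both, had mean levels of 7.36, 6.59 and 6.58. mmu_circ_0010441 and the chromosome 15 circle had low signals, with control levels of -2.94 and -2.91 and high fat diet levels of -3.36 and -3.30. The circles named here have the highest r of 21623 over only 9 arrays, and r takes no account of the size of a difference. No more is read from their likeness.

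The authors' deposited table holds log2 values that follow the probe minus partner signal after quantile normalisation. In that table mmu_circ_0015494 averaged 16.7 ± 0.567 in control, 15.4 ± 1.26 in high fat diet and 15.3 ± 0.355 in metformin (SD, n = 3). mmu_circ_0015495 averaged 16.4 ± 1.14, 16.4 ± 0.477 and 15.6 ± 0.867 in the same order in the authors' deposited table. There the high fat diet mean of mmu_circ_0015495 was level with control, unlike the probe's own signal. The probe minus partner difference computed from the arrays is a difference of log2 levels, which is an unlike measure. For mmu_circ_0015495 it differed from control by 0.12 ± 0.203 (SE) in high fat diet. The authors' deposited table lists the neighbours mmu_circ_0015487, mmu_circ_0015488 and mmu_circ_0015493 at its floor of -3.32 on all 9 arrays, while its values for the bright set lay well above its column medians of 6.51. On the arrays each of these neighbours had a lower mean level than its own partner in every group. The probe of mmu_circ_0015488 itself was not dim, with a mean level of 3.45 in control.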

How the data were processed

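The members and lists were chosen with earlier results of these data known. Per the file headers, the authors extracted 1-colour intensity values with Agilent Feature Extraction 11.5.1.1, while the submitters' processing notes name 10.7; the processed intensity is background-subtracted and detrended. The deposited table of log2 values was made by the authors and was read as given. Its scale was matched to the arrays as quantile-normalised probe minus partner signal, which no source states.

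Outlier-marked spots were left out, log2 of the processed intensity was taken, spots of a probe were averaged and each array's 75th percentile over all non-control probes was subtracted. A probe was tested if all 3 arrays of some group had it well above background (25864 of 30534 circRNAs, 84.7%), with limma 3.58.1 in R 4.3.3 over all 9 arrays in 3 groups (6 residual degrees of freedom), and Benjamini-Hochberg adjustment over all circRNA probes. Partner probes were fitted alike. The fit was tested on simulated data. P-values measure the spread between pools, and the number of arrays limits the precision. Named circRNAs are the pair, the partners, every probe numbered mmu_circ_0015485 to mmu_circ_0015505, the 5 probes outside these with the highest correlation to each member, and the 5 above and below each in signal, by rank only. Alternatives were normexp (offset 50) on median signals, the scanner files used here holding no mean signal, quantile or no scaling, other filters, a trend with robust spread, a column covariate, a replicate block, leaving out arrays, and the deposited table.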

Additional observations from a re-analysis of the deposited data

How the results depend on the processing

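The pair's differences from control kept their sign in all alternatives, except for mmu_circ_0015495 in high fat diet minus control. That difference turned above 0 only against the partner and in the authors' deposited table. For mmu_circ_0015494 high fat diet minus control was -0.69 with normexp and quantile normalisation, -1.32 in the authors' deposited table, -0.24 against the partner and -1.36 within column 1. For mmu_circ_0015495 it was -0.48 with normexp and quantile normalisation, and turned to 0.0267 in the authors' deposited table and to 0.12 against the partner. Metformin minus control was -0.93 (normexp and quantile) and -0.30 (partner) for mmu_circ_0015494, and -0.80 (authors' deposited table) and -0.0737 (partner) for mmu_circ_0015495. The partner values follow from the subtraction. The cause of the other shifts was not tested. Leaving out 1 array in turn gave -1.08 to -0.79 and -0.95 to -0.64 in high fat diet minus control, -1.36 to -1.13 and -1.39 to -0.98 in metformin minus control, and -0.43 to -0.14 and -0.60 to -0.19 in metformin minus high fat diet, for mmu_circ_0015494 and mmu_circ_0015495 in turn. Without scaling, an alternative chosen after seeing the data, high fat diet minus control was -0.77 and -0.57. The metformin minus high fat diet difference of the pair passed in none of 23 alternatives each (adjusted p from 0.402 to 1, limma). One neighbour, mmu_circ_0015496, passed in metformin minus control with normexp and percentile scaling, with normexp and quantile normalisation, and with a trend and robust spread (1 each). Over all circRNAs, high fat diet minus control gave 19 calls with normexp and percentile scaling, 7 with normexp and quantile normalisation, 1 with a filter that asks for all 9 arrays, 1 with outlier spots kept, 7 with a trend and robust spread, 1 with the column and 15 in the authors' deposited table. Metformin minus high fat diet gave 1 with the column, 14 in that table and 0 to 1 on leaving out an array (1 without high fat diet replicate 1). Metformin minus control gave 6, 3, 3, 2 and 23 calls with normexp and percentile scaling, normexp and quantile, trend and robust spread, the column and the deposited table. Deviations of same-numbered arrays correlated at -0.141 to 0.193. No arrays of unlike number were set beside them, so pairing by replicate number was not tested. With a replicate block high fat diet minus control gave 4 calls, and the pair's differences from control were -0.98 and -0.79 there, and -1.22 and -1.17 in metformin. Array number, pooling and position set the limits of these values.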
